A study of Mus musculus with 12 samples.

Results

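The MCM helicase family comprises the 9 mouse genes Mcm2 to Mcm10, and all 9 were measured among the 19938 genes with a name of their own on the array. Members were taken by symbol, and each was represented by 1 transcript cluster, the array's unit for a gene. NIH3T3 cells, an immortalised line of mouse embryonic fibroblasts, were kept in 1 mM DFMO (difluoromethylornithine) for 12 h (2 arrays), 24 h (3), 48 h (2) or 96 h (2), or were left untreated (3). DFMO blocks ornithine decarboxylase, the enzyme that starts polyamine synthesis. Cells of every group were sorted for the G1 fraction, and total RNA from each sort was hybridised to 1 whole-transcript array. The untreated cells were those of 0 h, so longer exposure also meant more hours in culture, and drug and culture time cannot be told apart. The arrays are called biological replicates in the labels. Their number limits the precision, and the p-values measure the spread between these arrays only.

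Mcm2 to Mcm7 are the subunits of a ring-shaped helicase that is loaded onto origins of replication in G1. The origin recognition complex, Cdc6 and Cdt1 load the ring. Cdc45 and the GINS proteins then join it to form the active CMG helicase, which unwinds DNA ahead of the fork. Mcm10 is not related to the ring in structure, and is needed for the helicase to start. Mcm8 and Mcm9 resemble the ring subunits, but pair with each other in a helicase used in recombination repair. In fibroblasts the genes of the ring are known as targets of E2F factors, and their transcripts fall when cells leave the cycle.

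Transcripts of all 9 genes were lower after 96 h of DFMO than in untreated cells, by 24.5-fold for Mcm6 and 23.8-fold for Mcm5, and by 1.75-fold or less for Mcm8 and Mcm9. At 48 h, 7 genes were lower, all by less than 1 unit on the log2 scale. At 12 h and 24 h no member passed the test. A change passed at an adjusted p under 0.05 in limma, a linear model fitted to all genes, with Benjamini-Hochberg adjustment over the 19938 genes. In RNA from a sorted pool, fewer cells with a transcript and less of it per cell cannot be told apart.

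Replicate arrays correlated at 0.994 to 0.998 over all genes. The fibroblast label fitted its markers, of which 11 of 11 measured lay above the array's background in every group. At 96 h, 5 of these 11 were lower (10.1% of all genes were) and 1 was higher (11.8%). Thy1, a surface marker, stood at 5.97, against 8.32 in untreated cells (change -2.35 ± 0.11, adjusted p = 7.3e-07, limma). Vim and S100a4 fell by only 0.26 and 0.28. Fn1, the 1 that rose, stood at 12.39, against 11.68 in untreated cells (change 0.71, adjusted p = 0.00176, limma). The part of these markers in the MCM changes was not tested. The array's background was taken from 19 leukocyte markers, with a median of 3.57 and a 90th percentile of 3.78 on the log2 scale. Of 12 epithelial and endothelial markers, 3 lay above it at 48 h, and 2 in every other group. At 96 h, 1 of them was lower (10.1% of all genes were) and 2 were higher (11.8%). Krt14, a keratin, stood at 7.01 at 96 h and 8.83 in untreated cells. Cdh1 rose by 0.58 to 4.62 (adjusted p = 0.000231, limma). Tek rose by 0.34 (adjusted p = 0.00198, limma) to 3.71, within background. Untreated replicate 3, 12 h replicate 2 and 24 h replicate 3 deviated from their groups in the same way over all genes, with correlations of 0.209 to 0.581 between their deviations. In Mcm4, Mcm5 and Mcm8 these 3 arrays all lay above the other 5 arrays of the early groups, which held for 1588 of 19938 genes (7.96%). Changes of these 3 genes and of Mcm9 are given with and without them. Of 18 markers of G2 and M phase, cells that a G1 sort should remove, 17 were measured. By group mean, all 17 lay above the 90th percentile of background in every group. Cdc25c barely did so at 96 h, with a mean of 3.80 and arrays at 3.73 and 3.87. The summed linear signal of the 17 was 3444.9 to 4134.8 in untreated cells, 3670.1 to 4182.3 at 12 h, 3560.1 to 4113.6 after 24 h, 2156.0 to 2226.3 at 48 h and 466.2 to 471.9 at 96 h. That sum fell at the same times as the MCM transcripts, and its part in their change was not tested.

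The promoters of Mcm6, Mcm5 and Mcm2 are shown because Mcm6 and Mcm5 had the largest changes of the family and Mcm2 the smallest within the ring. Sequences are from RefSeq, build GRCm38.p6, and run from base -250 to base -51 before the transcription start, 5′ to 3′ on the gene's strand. Mcm6 lies at chr1:128359756-128359955 on the minus strand, Mcm5 at chr8:75109259-75109458 on the plus strand and Mcm2 at chr6:88898831-88899030 on the minus strand. Capitals mark letters of the E2F motif.
Mcm6: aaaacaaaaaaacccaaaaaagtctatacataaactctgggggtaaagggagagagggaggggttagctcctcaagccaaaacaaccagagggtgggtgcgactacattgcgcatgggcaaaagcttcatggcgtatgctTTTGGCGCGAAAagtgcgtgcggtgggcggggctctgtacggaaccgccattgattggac
Mcm5: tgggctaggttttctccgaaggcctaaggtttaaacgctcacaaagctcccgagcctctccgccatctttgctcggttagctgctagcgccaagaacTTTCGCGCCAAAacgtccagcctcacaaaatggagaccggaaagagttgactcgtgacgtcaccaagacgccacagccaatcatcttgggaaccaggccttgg
Mcm2: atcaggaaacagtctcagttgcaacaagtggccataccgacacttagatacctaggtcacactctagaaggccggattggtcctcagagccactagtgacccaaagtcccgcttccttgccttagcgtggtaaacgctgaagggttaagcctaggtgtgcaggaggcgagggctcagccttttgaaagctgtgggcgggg
The stretches of Mcm6 and Mcm5 hold the same run of 12 letters, read from opposite strands. In each, a TTTGGCGC and a TTTCGCGC on opposite strands overlap. The stretch of Mcm2 holds none of the E2F letters searched.

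Windows of 300 bases, 250 before the start and 50 after it, were searched on both strands for 4 forms of the E2F motif, TTTCCCGC, TTTGGCGC, TTTCGCGC and TTTGCCGC. The promoter table held 8 of the 9 genes, not Mcm4. At least 1 form was found in 5 of these 8, Mcm3, Mcm5, Mcm6, Mcm7 and Mcm8. By window this was 5 of the 9 listed for them, against 744 of all 32851 windows (2.265%). The letters were not in the windows of Mcm2, Mcm9 and Mcm10, and 1 of the 2 windows listed for Mcm7 held them. The other sites are shown in windows of 30 bases, to set them beside the run of Mcm5 and Mcm6. Mcm3 is at chr1:20820266-20820295 (minus strand), the second site of Mcm6 at chr1:128359734-128359763 (minus strand), Mcm7 at chr5:138172030-138172059 and chr5:138171849-138171878 (both minus strand) and Mcm8 at chr2:132816161-132816190 (plus strand).
Mcm3: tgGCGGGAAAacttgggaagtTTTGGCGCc
Mcm6: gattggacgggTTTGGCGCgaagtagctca
Mcm7 upstream: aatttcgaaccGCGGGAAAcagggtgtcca
Mcm7 downstream: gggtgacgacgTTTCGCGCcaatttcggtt
Mcm8: gcagaagcgcgtcatagacGCGCCAAAaaa
Counted from the start site, the motif began at -110 and -47 in Mcm6, -153 in Mcm5, -165 and 17 in Mcm7, 20 and 39 in Mcm3 and 40 in Mcm8. The 12-letter run TTTGGCGCGAAA or its reverse complement stood in 4 of the 32851 windows (0.0122%), those of Mcm5, Mcm6, Msh3 and Mycn. This search was chosen after the sequences were seen. Msh3, a mismatch repair gene, fell by 0.75 ± 0.06 at 96 h (adjusted p = 1.65e-05, limma). Mycn, a MYC family gene, averaged 3.68 at 96 h and 3.66 in untreated cells, at the level of the leukocyte markers. CCAAT was found in 8 of the 8 genes, in 9 of their 9 windows and in 37.4% of all windows. GGGCGG, the GC box, was found in 7 of the 8, not Mcm5, in 8 of the 9 windows and in 35.7% of all. TTTGAA, the core of the CHR element, was found in Mcm2 only among the 8 (1 of the 9 windows), and in 17.9% of all windows. A match is a description of letters, not a binding site.

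**Figure D1:**
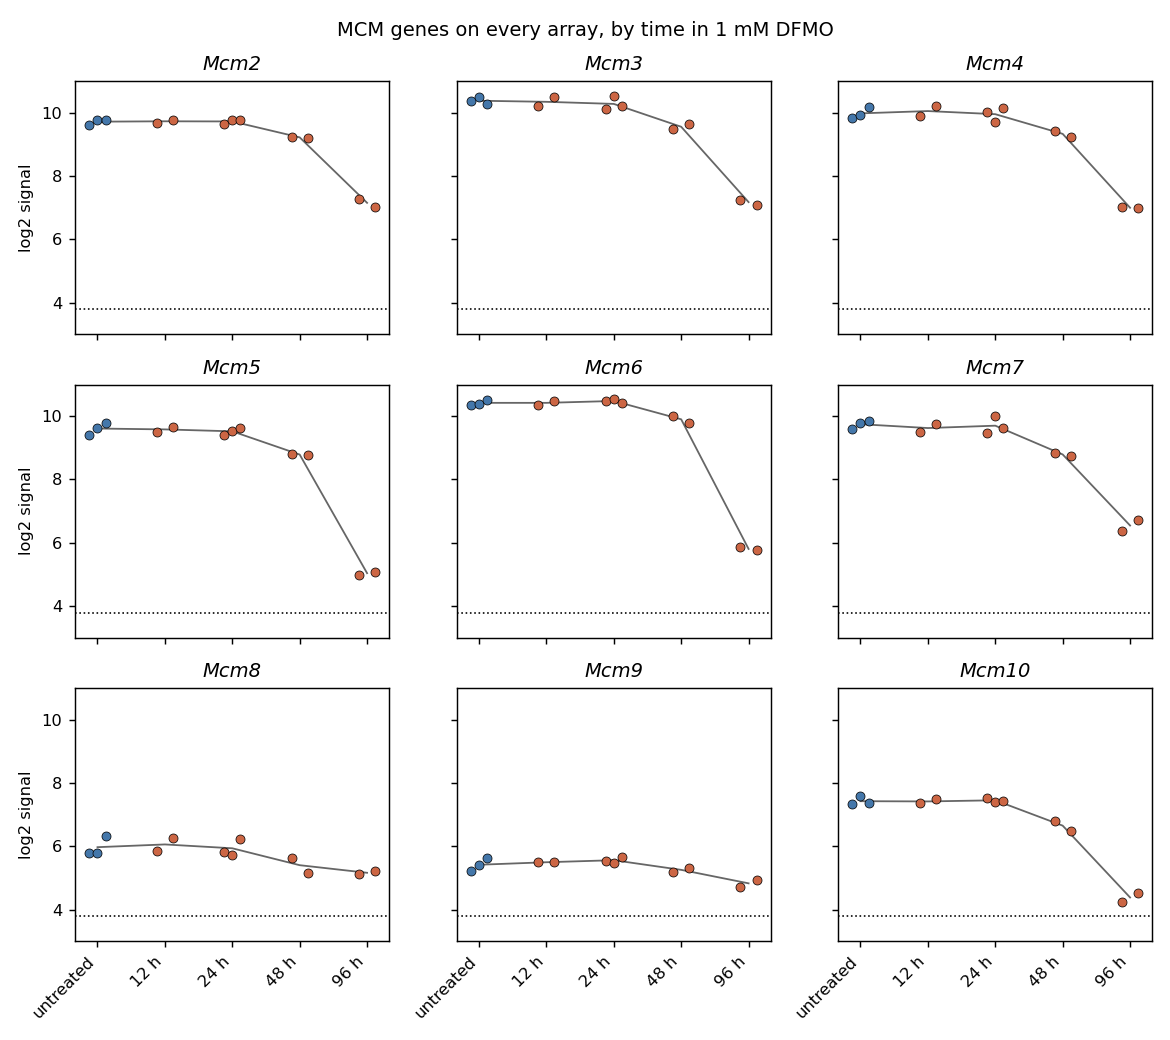
Log2 signal of each MCM gene on every array, untreated (blue) and by hours in 1 mM DFMO (orange), with lines through the group means and the 90th percentile of the leukocyte markers dotted; times are evenly spaced, not to scale. The arrays of 96 h lie lowest for every gene but 1 value of Mcm8, whose 48 h replicate 2 at 5.16 falls between its 96 h arrays of 5.12 and 5.21.

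Mcm6, a ring subunit that forms the catalytic core together with Mcm4 and Mcm7, read 10.36, 10.40 and 10.50 on the untreated arrays, 10.36 and 10.48 at 12 h and 10.47, 10.54 and 10.42 after 24 h. It read 10.00 and 9.80 at 48 h, and 5.85 and 5.76 at 96 h. All arrays of the first 3 groups shared 1 range, the 48 h arrays lay below it, and those of 96 h lay far below both. The fall at 96 h was 4.62 ± 0.08 (SE, log2, adjusted p = 3.42e-09), the fourth largest fall among all genes. At 48 h it was 0.52 ± 0.08 (adjusted p = 0.0059).

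Mcm4 read 9.85, 9.92 and 10.17 untreated, 9.88 and 10.22 at 12 h, 10.02, 9.70 and 10.14 after 24 h, 9.42 and 9.24 at 48 h, and 7.01 and 6.98 at 96 h. Its 3 deviating arrays spanned 10.14 to 10.22 and the other 5 early arrays 9.70 to 10.02, and the 48 h arrays lay below all of them. The change was -2.98 ± 0.15 at 96 h (adjusted p = 9.88e-07). That of 48 h was -0.65 ± 0.15 (adjusted p = 0.0359). Without the 3 deviating arrays the changes were -2.89 at 96 h and -0.55 at 48 h, both still called (adjusted p = 2.69e-05 and 0.0444). The 48 h call was lost when any 1 array of the untreated, 48 h or 96 h groups was left out (adjusted p of 0.0558 to 0.205). Mcm7 read 9.61, 9.80 and 9.84 untreated, 9.50 and 9.75 at 12 h, 9.47, 10.00 and 9.62 after 24 h, 8.82 and 8.76 at 48 h, and 6.36 and 6.73 at 96 h. The 48 h and 96 h arrays were each apart from the rest, and the 96 h pair differed more between its arrays than the 48 h pair. Its 96 h change was -3.20 ± 0.16 (adjusted p = 1.01e-06). The 48 h change of -0.96 ± 0.16 (adjusted p = 0.0103) was the largest of the 9 genes at that time.

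Mcm2, Mcm3 and Mcm5 complete the ring, with the gate through which DNA enters between Mcm2 and Mcm5. Mcm5 read 9.41, 9.62 and 9.79 untreated, 9.51 and 9.65 at 12 h, 9.39, 9.53 and 9.64 after 24 h, 8.82 and 8.76 at 48 h, and 4.99 and 5.09 at 96 h. Its groups overlapped up to 24 h and not after. It fell by 4.57 ± 0.11 at 96 h (adjusted p = 2.36e-08), the fifth largest fall among all genes. The 96 h mean of 5.04 was 1.47 above the median of the leukocyte markers, in a range where folds come out too small. The 48 h change was -0.82 ± 0.11 (adjusted p = 0.00357). The 3 deviating arrays read 9.64 to 9.79 and the other 5 early arrays 9.39 to 9.62, and without the 3 the changes were -4.48 at 96 h and -0.73 at 48 h (adjusted p = 4.28e-06 and 0.0113).

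Mcm2 read 9.61, 9.77 and 9.77 untreated, 9.68 and 9.78 at 12 h, 9.65, 9.75 and 9.77 after 24 h, 9.24 and 9.20 at 48 h, and 7.28 and 7.02 at 96 h. Arrays of each later time lay below all earlier ones from 48 h on. The 96 h change, -2.56 ± 0.09 (adjusted p = 8.87e-08), was the smallest in the ring, and the 48 h change was -0.50 ± 0.09 (adjusted p = 0.011). Mcm3 read 10.38, 10.48 and 10.27 untreated, 10.21 and 10.48 at 12 h, 10.10, 10.51 and 10.22 after 24 h, 9.48 and 9.63 at 48 h, and 7.26 and 7.09 at 96 h. Here too the early groups overlapped, and the later ones did not. Mcm3 fell by 3.20 ± 0.13 at 96 h (adjusted p = 2.53e-07), with a 48 h change of -0.82 ± 0.13 (adjusted p = 0.00767).

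Mcm10, which binds the helicase and DNA polymerase alpha at the fork, read 7.33, 7.58 and 7.36 untreated, 7.35 and 7.48 at 12 h, 7.51, 7.40 and 7.44 after 24 h, 6.81 and 6.49 at 48 h, and 4.23 and 4.54 at 96 h. The 96 h mean of 4.38 was 0.81 above the leukocyte median, the nearest of the 9 to background, where folds come out too small. The 96 h change was -3.04 ± 0.12 (adjusted p = 2.34e-07), and the 48 h change -0.77 ± 0.12 (adjusted p = 0.00767). Its falls lay within the range of the 6 ring subunits at both times.

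Mcm8 read 5.79, 5.78 and 6.34 untreated, 5.84 and 6.28 at 12 h, 5.83, 5.73 and 6.24 after 24 h, 5.64 and 5.16 at 48 h, and 5.12 and 5.21 at 96 h. The values over 6 were those of the 3 arrays that deviate together, and the other 5 early arrays spanned 5.73 to 5.84. Mcm8 fell by 0.81 ± 0.23 at 96 h (adjusted p = 0.0295). Without the 3 arrays the change was -0.62 (adjusted p = 0.0237). Leaving them out, a choice made after seeing the data, also narrows the spread of the early groups, so this p adds no support. The 96 h call was lost without untreated replicate 3 (adjusted p = 0.0758) and without either 96 h array (adjusted p = 0.151 and 0.109). The 48 h change of -0.57 ± 0.23 did not pass (adjusted p = 0.199), nor did that of -0.38 without the 3 arrays (adjusted p = 0.191).

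Mcm9, the partner of Mcm8, read 5.23, 5.40 and 5.62 untreated, 5.50 and 5.49 at 12 h, 5.54, 5.48 and 5.67 after 24 h, 5.18 and 5.33 at 48 h, and 4.72 and 4.94 at 96 h. Its 48 h arrays overlapped the untreated ones, and its 96 h arrays lay below all others. It fell by 0.59 ± 0.11 at 96 h (adjusted p = 0.00433). Without the 3 deviating arrays the change was -0.49 (adjusted p = 0.0145). The call was lost without 96 h replicate 1 (adjusted p = 0.0525). At 48 h the change was -0.16 ± 0.11 (adjusted p = 0.478), and -0.06 without the 3 arrays (adjusted p = 0.776). Mcm8 and Mcm9 stood at 5.16 and 4.83 at 96 h, above the 90th percentile of the leukocyte markers, but in a range where background left in the values makes folds too small.

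At 12 h and 24 h, 0 of the 9 genes were called, as were 0 of the 19938 genes (0% at each time). None of the 9 reached an unadjusted p of 0.05 at either time, against 741 of 19938 genes at 12 h and 1579 of 19938 at 24 h. Both are small shares, so 0 of 9 is near the share of all genes. The largest 12 h change was -0.12 ± 0.16 in Mcm7, and the largest 24 h change was 0.14 ± 0.10 in Mcm9. Their smallest adjusted p was 0.989 at 12 h and 0.766 at 24 h. In neither group did all treated arrays of a member lie below all untreated ones, which held for 11.7% of genes at 12 h and 9.26% at 24 h.

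At 48 h, 7 of the 9 were called lower, where 3.17% of all genes were. The 48 h arrays lay below all untreated arrays in 8 of the 9, all but Mcm9, against 25.2% of genes. The median change of the 9 was -0.65, and that of all genes -0.02. The 48 h calls rested on few arrays: without 48 h replicate 1, Mcm5, Mcm6 and Mcm10 were called (3 genes), and without 48 h replicate 2, Mcm3 and Mcm5 (2 genes). Mcm5 was called in every alternative run.

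At 96 h, all 9 were called lower, where 10.1% of genes were, and the arrays of the 2 groups overlapped in none of the 9, against 21.4% of genes with all 96 h arrays below all untreated ones. The median change was -3.04 for the 9 and 0.00 for all genes. Ranked from the largest fall, Mcm6 and Mcm5 came 4 and 5, Mcm3, Mcm7, Mcm10, Mcm4 and Mcm2 came 48, 49, 63, 71 and 115, and Mcm8 and Mcm9 came 850 and 1339 of 19938. Over all 4 times, limma's F test called 8 of the 9 and 17.0% of genes. The exception was Mcm8 (adjusted p = 0.074).

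**Figure D2:**
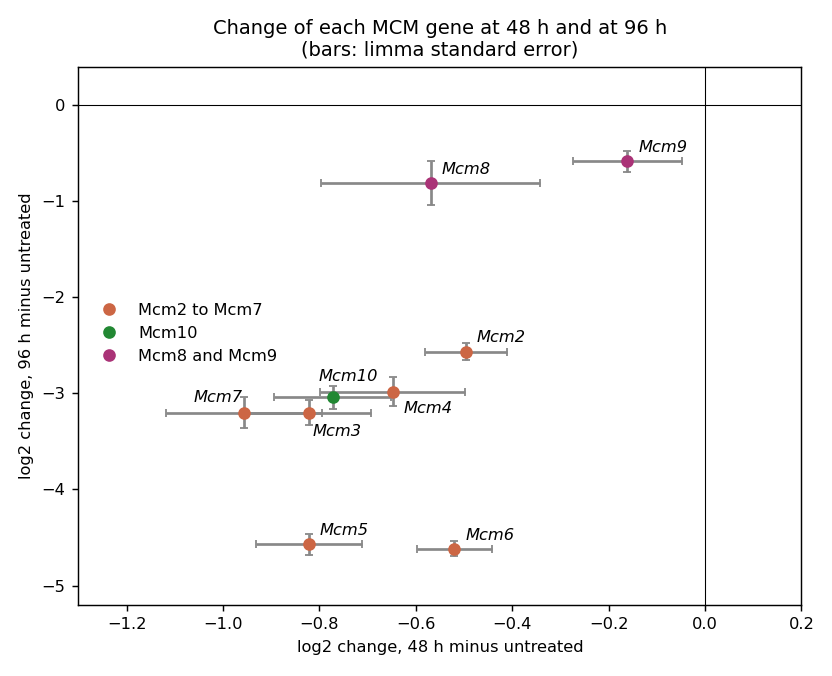
Log2 change of each MCM gene at 48 h (x axis) and at 96 h (y axis), both against untreated cells, with bars for limma's standard errors. Mcm5 and Mcm6 lie lowest, at -4.57 and -4.62, Mcm8 and Mcm9 highest, at -0.81 and -0.59, and the other ring subunits lie with Mcm10 between -2.56 and -3.20.

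On the log2 scale, the 48 h change was 11.3% of the 96 h change in Mcm6 and 29.9% in Mcm7, with the other ring subunits between them, and 25.4% in Mcm10. On the linear scale the share of the loss reached by 48 h was larger, from 31.6% in Mcm6 to 54.4% in Mcm7. Signal stood at 10.9% of the untreated level at 96 h and 51.5% at 48 h in Mcm7, and at 4.08% and 69.7% in Mcm6. Between 24 h and 48 h, 6 genes fell (1.14% of all genes did), with changes of -0.91 in Mcm7, -0.80 in Mcm10, -0.73 in Mcm5, -0.72 in Mcm3, -0.58 in Mcm6 and -0.50 in Mcm2. This count was 0 and 2 without one or the other 48 h array, 3 without 24 h replicate 3, and 2 without the 3 deviating arrays. In the same step Mcm4 (-0.62, adjusted p = 0.0864), Mcm8 (-0.53, adjusted p = 0.397) and Mcm9 (-0.30, adjusted p = 0.299) were also lower but did not pass in limma. Between 48 h and 96 h, 7 genes fell (4.29% of all genes), with changes of -4.10 in Mcm6, -3.75 in Mcm5, -2.38 in Mcm3, -2.33 in Mcm4, -2.27 in Mcm10, -2.25 in Mcm7 and -2.07 in Mcm2. Mcm8 (-0.24, adjusted p = 0.657) and Mcm9 (-0.43, adjusted p = 0.0675) did not pass in that step.

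The steps between 24 h and 48 h and between 48 h and 96 h last 24 h and 48 h, so a steady decline on the log2 scale would make the later one larger. As whole steps, the later fall exceeded the earlier in 6 genes, where 0.361% of genes had such a difference, with differences of -3.52 in Mcm6, -3.01 in Mcm5, -1.71 in Mcm4, -1.66 in Mcm3, -1.57 in Mcm2 and -1.47 in Mcm10. The difference in Mcm7 was -1.34 (adjusted p = 0.142), and without 48 h replicate 1 the count was 2. Per 24 h, a comparison added after seeing the data, only Mcm6 was called among the 9 (0.0100% of genes). Mcm6 changed by -2.05 per 24 h after 48 h and by -0.58 in the 24 h before, a difference of -1.47 ± 0.11 (adjusted p = 0.00313). In Mcm5 the difference per 24 h was -1.14 ± 0.15 (adjusted p = 0.142), and in Mcm7 it was -0.21 ± 0.22 (adjusted p = 0.997).

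Members also differed from each other in how far they fell. Each gene's change was compared with the mean change of the ring subunits, its own value left out, in the same model. Nearly all genes differ from the ring in this test (99.8% at 96 h and 95.2% at 48 h, and 99.8% to 99.9% and 94.2%, 94.7%, 95.3%, 95.8% or 95.9% with the subunit tested left out of the mean), so only the sizes are informative, and the count of members is not. At 96 h, Mcm6 fell further than the other subunits, with a difference of -1.31 ± 0.10 (adjusted p = 6.38e-09), and so did Mcm5, with one of -1.26 ± 0.10 (adjusted p = 1.66e-08). Mcm2 fell less, with a difference of 1.15 ± 0.11 (adjusted p = 4.29e-08), as did Mcm4 (0.65), Mcm7 (0.39) and Mcm3 (0.38). The means used for these genes and for Mcm10 include the large falls of Mcm5 and Mcm6. Mcm3 and Mcm7 each changed by -3.20, which is also the median change of the ring, so they fell less than its mean only. The Mcm7 difference was 0.61 without 96 h replicate 1 and 0.16 without 96 h replicate 2 (adjusted p = 0.342). The Mcm3 call was lost without 96 h replicate 1 (0.29, adjusted p = 0.129) and without untreated replicate 3 (0.27, adjusted p = 0.0669). The difference was 0.48 ± 0.13 in Mcm10 (adjusted p = 0.00288), and 0.32 (adjusted p = 0.0681) without 96 h replicate 2. Mcm10 stood only 0.81 above the leukocyte median at 96 h, where folds come out too small. The direction of its difference is therefore not established. In Mcm8 the difference was 2.71 ± 0.18 and in Mcm9 2.94 ± 0.12. Untreated Mcm8 and Mcm9 stood only 2.40 and 1.84 above the leukocyte median, and the median change of the ring was -3.20, so even a fall to background would have been smaller than that of the ring, and the direction of these 2 differences is no finding. At 48 h, 3 genes differed, Mcm9 by 0.55 (adjusted p = 0.000772), Mcm2 by 0.26 (adjusted p = 0.0331) and Mcm6 by 0.23 (adjusted p = 0.0486), all falling less. Only Mcm9 was left without untreated replicate 2, without untreated replicate 3 or without 48 h replicate 1. The Mcm6 value was 0.15 (adjusted p = 0.325) without 48 h replicate 1. Its call was also lost without either 96 h array, without 24 h replicate 2 or 3, and with a replicate block (0.20, adjusted p = 0.0547). With that block Mcm7 was called instead, at -0.32 (adjusted p = 0.0277).

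**Figure D3:**
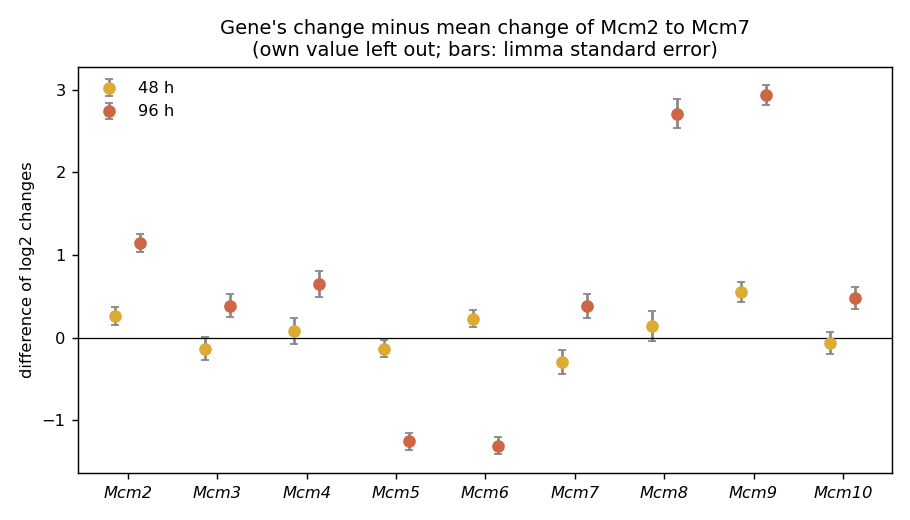
Difference between each gene's log2 change and the mean log2 change of Mcm2 to Mcm7 (own value left out), at 48 h and 96 h, with limma's standard errors; below 0 the gene fell more. At 96 h Mcm5 and Mcm6 lie at -1.26 and -1.31, and Mcm8 and Mcm9 at 2.71 and 2.94.

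RefSeq order gave 23 neighbours, next to a member or overlapping it, of which 18 were measured. At 48 h, 0 of the 18 were called by limma, and 1 had an unadjusted p under 0.05, as 19.8% of all genes had. At 96 h, 2 were lower (10.1% of all genes were), 3 were higher (11.8%) and 13 were not called (72.2%, and 78.1% of all genes), with changes of -0.57 to 1.17. Of the 18, Podxl2, Rasd2, Lct, Fam184a and Ucma stood at 3.44 to 3.67 in untreated cells, within background, where no fall could show. Il17f, at 3.89, and Mir25, Mir93 and Mir106b, which overlap Mcm7, at 4.13 to 4.18, stood near background. Hmox1, the heme oxygenase gene next to Mcm5, read 9.37 and 9.85 at 96 h, against 8.30 to 8.57 in untreated cells, and rose by 1.17 ± 0.18 (adjusted p = 0.00102). Prkdc, which encodes the catalytic subunit of a DNA repair kinase and lies next to Mcm4, rose by 0.55 ± 0.15 (adjusted p = 0.0234). Cops6, a COP9 signalosome subunit next to Mcm7, rose by 0.38 (adjusted p = 0.0199). Ap4m1, an adaptor complex gene that overlaps Mcm7, fell by 0.52 (adjusted p = 0.0256), and Asf1a, a histone chaperone gene that overlaps Mcm9, fell by 0.57 (adjusted p = 0.0441). Whether the array's probes separate overlapping genes was not tested. Trmt6, next to Mcm8, changed by 0.06 (adjusted p = 0.742).

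**Figure D4:**
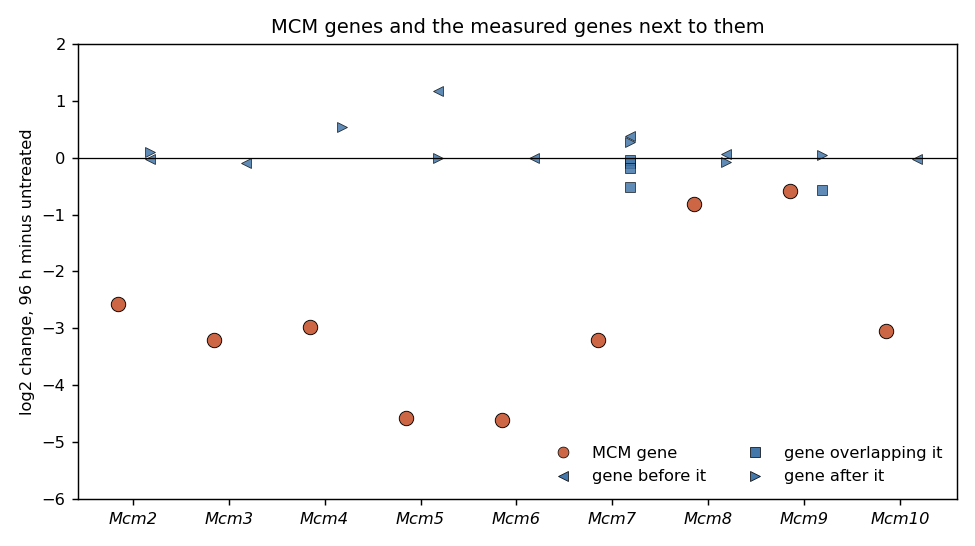
Log2 change at 96 h against untreated cells for each MCM gene (orange circles) and for the measured genes before, after or overlapping it (blue). The neighbours lie between -0.57 and 1.17, above the MCM gene in every column. In that of Mcm9, the overlapping Asf1a (-0.57) and Mcm9 (-0.59) nearly coincide. Neighbours near background in untreated cells could show little or no fall.

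An intron of Mcm7 carries 3 microRNA genes, Mir106b, Mir93 and Mir25, each with a cluster of its own on the array. Their main mature products are shown because the same transcript carries them. Sequences are from RefSeq and capitals mark the seed, bases 2 to 8.
mmu-miR-106b-5p: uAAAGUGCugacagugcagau
mmu-miR-93-5p: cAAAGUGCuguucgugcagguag
mmu-miR-25-3p: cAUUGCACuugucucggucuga
The seed AAAGUGC is shared by miR-106b and miR-93, and miR-25 has another. The 3 clusters stood at 3.99, 4.13 and 4.04 at 96 h, against 4.17, 4.18 and 4.13 in untreated cells, near background. None was called at 96 h, with changes of -0.19, -0.05 and -0.09 (smallest adjusted p = 0.297). These clusters were read from total RNA and do not measure the mature form.

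The 16 genes of CMG assembly and fork partners were all lower at 96 h, where 10.1% of all genes were. Their median change was -1.92. At 48 h, 9 were lower (3.17% of all genes), with a median of -0.56. Clspn, a fork checkpoint mediator, changed by -3.45 ± 0.11 at 96 h, and Timeless, of the fork protection complex, by -2.79 ± 0.10. Topbp1 and Recql4, which act in helicase activation, changed by -2.19 and -1.66, Wdhd1, which ties the helicase to polymerase alpha, by -2.71, and Dbf4, the activator of the kinase that phosphorylates the ring, by -1.99. All 6 had adjusted p of 3.99e-06 or less in limma. Recql4 averaged 3.81 at 96 h, with arrays at 3.73 and 3.89, and Clspn averaged 3.92. Both stood at the edge of background, where folds come out too small.

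Of 13 genes for loading and binding the ring, 8 were lower at 96 h, where 10.1% of all genes were. Another 1 was higher (11.8% of all genes) and 4 were not called, with a median of -0.87 over the 13. At 48 h, 3 were lower (3.17% of all genes), with a median of -0.20. Cdc6, the loading ATPase, fell by 4.07 ± 0.14 and stood at 3.41 at 96 h, within background, where folds come out too small. Orc1 and Orc6, of the origin recognition complex, changed by -1.90 and -1.07. Gmnn, which encodes geminin, the inhibitor of Cdt1, changed by -0.90, Mcmbp, which binds the ring subunits, by -0.95, and Hrob, which brings the Mcm8 and Mcm9 helicase to damage, by -0.87. The gene that rose was Orc3, by 0.57 ± 0.14 (adjusted p = 0.0151), named after its value was seen.

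Of 13 E2F factors, their partners and pocket proteins, 8 were lower at 96 h, where 10.1% of all genes were. Another 2 were higher (11.8% of all genes) and 3 were not called, with a median of -0.86 over the 13. At 48 h, 3 were lower (3.17% of all genes), with a median of -0.22. E2f1, an activator of replication genes, fell by 1.61 ± 0.19 at 96 h (adjusted p = 0.000273). E2f7 and E2f8, which repress, changed by -2.26 and -2.59 (E2f8 stood at 3.78 at 96 h, within background, where folds come out too small), Tfdp1 and Tfdp2, the dimer partners, by -0.98 and -1.60, and Rbl1, a pocket protein, by -1.66. The 2 that rose, named after their values were seen, were the pocket protein genes Rb1 by 0.95 and Rbl2 by 0.67. At 48 h the E2f1 change was -0.22 ± 0.19 (adjusted p = 0.591). The 3 genes lower at 48 h were E2f8 (-1.12), E2f7 (-0.90) and Tfdp2 (-0.56). The part of these factors in the MCM changes was not tested.

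**Figure D5:**
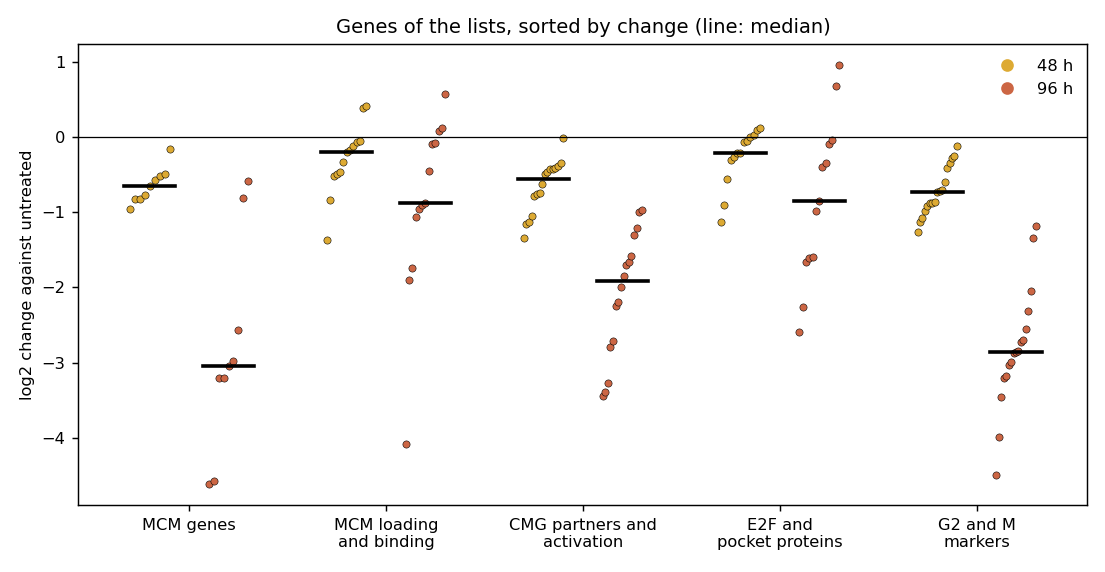
Log2 change against untreated cells at 48 h and 96 h for each measured gene of 5 lists, sorted within each, with lines for the medians. The MCM genes have medians of -0.65 and -3.04, the loading genes -0.20 and -0.87, the CMG partners -0.56 and -1.92, the E2F and pocket genes -0.22 and -0.86, and the G2 and M markers -0.73 and -2.85.

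Of the 17 G2 and M markers, 12 were lower at 48 h (3.17% of all genes were), and all 17 at 96 h (10.1%). Their medians were -0.73 and -2.85, beside -0.65 and -3.04 for the MCM genes. At 96 h the lowest of them was Cdc25c, at 3.80, at the edge of background, and the highest was Tpx2, at 6.18.

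Likeness over the 12 arrays was measured by Pearson's r with the mean log2 value of Mcm2 to Mcm7. Outside the family the most alike were Tpx2, a spindle assembly factor (r = 0.998), Dtl, a ubiquitin ligase adaptor for Cdt1 (0.998), Nuf2, a kinetochore protein (0.997), Pclaf, a PCNA-binding protein (0.997), Dnmt1, the maintenance DNA methyltransferase (0.997), Aspm, a spindle pole protein (0.997), Kif20a, a mitotic kinesin (0.997), and Uhrf1, which recruits Dnmt1 (0.996). An r over 0.98 was reached by 102 of 19929 genes, and over 0.95 by 292. All points share the same arrays, and those of 96 h lie far from the rest, so these values mostly describe that group. Within the family, r was 0.993 for Mcm10, 0.897 for Mcm9 and 0.759 for Mcm8.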

How the data were processed

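Total RNA of sorted G1 cells was measured on 12 arrays. The authors deposited log2 values per transcript cluster, normalised before deposit. RMA and Partek appear per the submitters' processing notes, versions not given. Quantile normalisation, a step of RMA, would hide a change of all transcripts in 1 direction. Values lay between 2.53 and 13.18, with array medians of 4.13 to 4.20.

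Of 35399 clusters, 21789 had 1 symbol, 1621 several and 11989 none. Identifiers of 21698 were found in RefSeq (GRCm38.p6), and 0 symbols were updated. For 999 genes with several clusters, the one with the highest mean was used, leaving 19938 genes. 0 columns lacked a sample. Coordinates are printed for RefSeq promoter windows only (GRCm38.p6), since no source used here gives the build of the array.

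In limma 3.58.1 (R 4.3.3; lmFit and eBayes), group means were estimated from the 12 arrays together, and the scripts were tested first on simulated data. Two-sided p-values were adjusted over all genes of a comparison (Benjamini-Hochberg). Tables and plots used Python 3.11.15, pandas 2.3.3 and matplotlib 3.10.9. The members and lists were chosen with earlier results of these data known. Named were the 9 members, their neighbours in RefSeq order, the 8 genes most alike outside the family, up to 6 genes per list by the smallest F test p, E2f1 and the microRNAs of Mcm7. The list of G2 and M markers is reported by its extremes.

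Pairing by replicate number was checked from deviations from group means. Between 24 h and untreated arrays, same-numbered pairs correlated at 0.153, 0.287 and 0.581, but pairs of unlike number also reached 0.235. Other times share only 2 numbers, and the labels give numbers no meaning. Alternatives were other filters, clusters, spreads, groups in the fit, a replicate block, and each array left out.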

Additional observations from a re-analysis of the deposited data

Results flagged for a closer look

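The change at 96 h differed from that at 48 h in 7 of the 9 genes, by limma's test of the difference itself, which equals the step between these times. The differences, 96 h minus 48 h on the log2 scale, were -4.10 in Mcm6, -3.75 in Mcm5, -2.38 in Mcm3, -2.33 in Mcm4, -2.27 in Mcm10, -2.25 in Mcm7 and -2.07 in Mcm2, and both arrays of 96 h lay below both of 48 h in each. No group held 4 arrays, so single arrays were not screened for outlying values.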

How the results depend on the processing

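No called result changed direction under any alternative run. The count of genes called at 96 h was 7 to 9 with single arrays left out, and 9 without the 3 deviating arrays. The other counts with single arrays left out were 2 to 7 at 48 h, 0 to 6 between 24 h and 48 h, 7 to 8 between 48 h and 96 h, 2 to 6 for the difference between these steps, 7 to 8 for the F test, 1 to 3 at 48 h and 7 to 9 at 96 h for the difference from the ring, and 0 at 12 h and 24 h and between them. The median change of the 9 genes ranged from -0.75 to -0.55 at 48 h over all alternatives. Between 24 h and 48 h the count of 6 became 0 with only the compared groups in the fit, 2 without the 3 deviating arrays and 1 with each gene's spread taken alone. For the difference between steps the count of 6 became 3 with only the compared groups, 3 with each gene's spread alone, and 1 with both steps taken per 24 h. For the difference from the ring at 48 h the count of 3 became 1 with a filter on low values, with a trend in the variance, and without the 3 deviating arrays. With the replicate number as a block, 7 genes were called at 48 h, 9 at 96 h, 6 between 24 h and 48 h, 8 between 48 h and 96 h and 5 for the difference between steps. The block ended no call at 96 h. The alternatives with the 3 arrays, with each gene's spread alone and with steps per 24 h were chosen after seeing the data, and the causes were not tested. Background left in the values limits the changes that Mcm5, Mcm8, Mcm9 and Mcm10 could show.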
